A study of Mus musculus with 8 samples.

Results

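The comparison set mammary tumour cells of an Mtdh-knockout line, with an Mtdh gene put back, against cells of a wild-type line that carried an empty vector. It used 5 of the 8 arrays of the series, chosen by their labels and by no measured value. All cells came from FVB mice that carried the polyoma middle T (PyMT) transgene, and all cultures had received 50 uM camptothecin (CPT) for 36 h before RNA was taken. The knockout line (KO2) was represented by 2 arrays. In 1 of them a lentivirus had put back wild-type mouse Mtdh, and in the other a mutant with the change W391D. Both rescue viruses also encoded GFP, by which the cells had been sorted. The wild-type line (WTA) was represented by 3 arrays of cells with the empty vector LKO1, selected with puromycin. The remaining 3 arrays held WTA cells with a knockdown of Snd1 and serve here only as values set beside the others.

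Mtdh (metadherin) is a membrane-associated scaffold protein of mammary tumour cells that binds Snd1, a nuclease-domain protein, and the labelled W391D change lies in the Mtdh part of that interface. The pair is known for supporting tumour-initiating cells under stress, and Mtdh has also been linked to NF-kB signalling, invasion and drug resistance. Camptothecin traps topoisomerase I on DNA, so that replication forks break and the DNA damage response starts.

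No array of the knockout line without rescue, and none of either line without camptothecin, was analysed here. Each genotype was 1 cell line, and the lines differed at once in Mtdh genotype, in the vector, in the way the cells were selected, in the slides and in the scan day. These cannot be told apart. A difference below is therefore one between these lines as they were grown and hybridised.

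RNA of each sample carried Cy5 and shared its array with a common mouse reference RNA that carried Cy3, a mix from 11 lines, and the value of a gene was the log2 ratio of Cy5 over Cy3. A ratio of 0 means the level of the reference, and 1 unit is a 2-fold change. A feature is the brightest probe of a named gene or an unnamed probe. The 2 rescue arrays lay on 2 slides read on 1 scan day and the 3 vector arrays on 2 other slides read on another day. Cy5 was well above background at 78.6% to 88.5% of spots, and no spot was saturated. Log ratios correlated across features at 0.988 between the rescue arrays, at 0.981 to 0.993 among vector arrays and at 0.878 to 0.890 between the lines, as a description of these arrays.

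Mtdh itself was higher in the rescue line. Its log2 ratio was 0.42 with the wild-type rescue and -0.10 with W391D, against -0.73, -0.65 and -0.59 on the vector arrays, so the lines did not overlap. The difference was 0.81 ± 0.14 (SE, 2 against 3 arrays), or 1.76-fold, with an adjusted p of 0.003 by limma. A second Mtdh probe gave 0.52. Whether either probe lies in the disrupted or the reintroduced stretch is not given in the sources used here, so the probes do not separate endogenous from lentiviral Mtdh. Snd1 had ratios of -1.92 and -1.98 on the rescue arrays and -2.49, -2.40 and -2.43 on the vector arrays, and was higher by 0.49 ± 0.06. On the Snd1 knockdown arrays Snd1 lay at -3.44 to -3.23 and Mtdh at -0.85 to -0.72.

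Across the genome, 26947 features were tested and 10965 of them (40.7%) were called at an adjusted p under 0.05. Of these, 6246 (23.2% of features) were higher and 4719 (17.5%) lower in the rescue line. Most differences were small. The median absolute difference was 0.15 on the log2 scale, and 549 features (2.04%) were called higher and 230 (0.854%) called lower by at least 2-fold. At 8-fold or more, 14 were higher and 8 lower. The values of the lines did not overlap at 16455 features (61.1%). Of the called features 10963 had both rescue arrays on the same side of the vector mean, which a call nearly requires. The rescue arrays differed from each other by 2-fold or more at 1 feature, and pairs of vector arrays did so at 17 to 66.

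**Figure D1:**
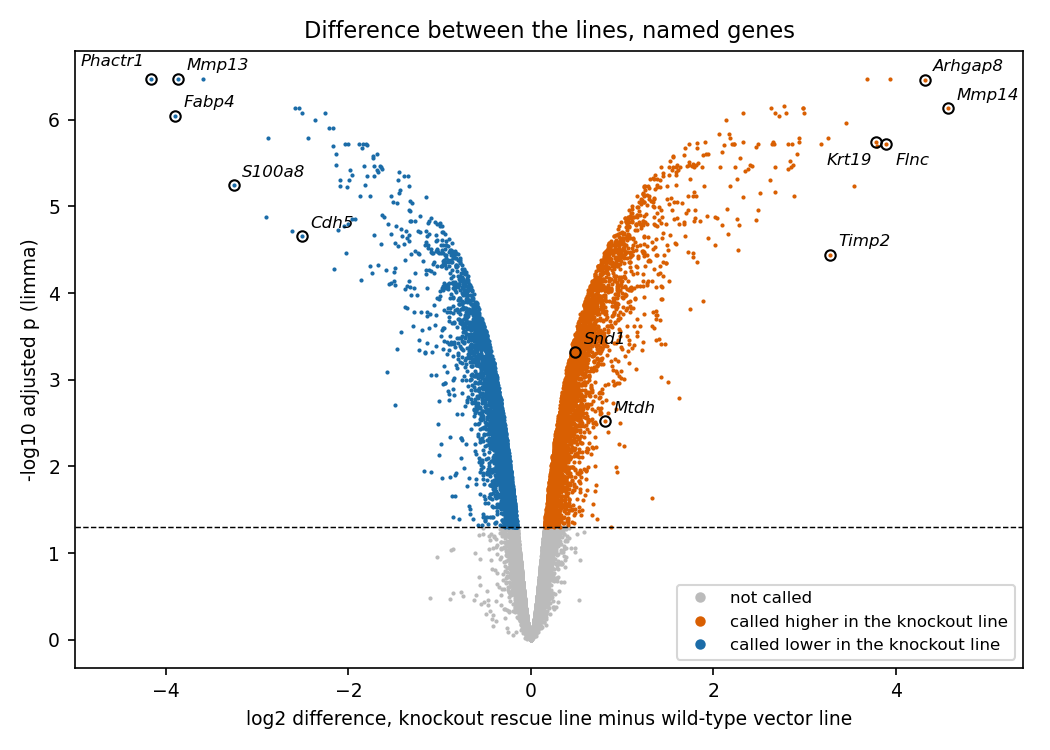
Difference between the lines (rescue minus vector, log2, horizontal axis) against the significance of that difference (−log10 of the adjusted p, vertical axis), with 1 point per named gene tested and the threshold as a dashed line. Of 17689 named genes, 4266 were called higher (orange) and 3684 lower (blue), and Mmp14 and Phactr1 lie at the ends of the horizontal range.

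The gene with the largest higher call was Mmp14, a membrane-anchored matrix metalloproteinase. It had ratios of -0.57 and -0.83 on the rescue arrays (in the order wild-type, W391D, here and below) and -5.17, -5.30 and -5.35 on the vector arrays. The difference was 4.57 ± 0.09 (23.8-fold), and a second probe gave 1.20. Thus both probes placed Mmp14 higher in the rescue line, while the size depended on the probe. On the Snd1 knockdown arrays it lay at -0.94 to -0.71.

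Krt19, a keratin of luminal cells, had ratios of -0.40 and -0.28 in the rescue line and -3.91, -4.24 and -4.23 in the vector line, a difference of 3.79 ± 0.11. Ripk3, the kinase that drives necroptosis, stood at -0.08 and 0.03 against -3.33, -3.59 and -3.51, a difference of 3.45 ± 0.09. For Pmaip1 (Noxa), a BH3-only death gene induced by p53, the values were 1.39 and 1.54 against -1.55, -1.54 and -1.49, a difference of 2.99 ± 0.06. In each of these genes the lowest rescue array lay above the highest vector array, which the choice of genes required. The knockdown arrays, from the same wild-type line as the vector arrays, lay at 0.82 to 0.96 for Ripk3 and 3.13 to 3.22 for Pmaip1. In both genes they stood above all vector and all rescue arrays.

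Timp2, an inhibitor of metalloproteinases, read 2.83 and 2.09 in the rescue line and -1.04, -0.69 and -0.73 in the vector line, a difference of 3.28 ± 0.21. Il18r1, a subunit of the interleukin-18 receptor, was higher by 3.18 ± 0.09. Foxd1, a forkhead factor, was higher by 3.55 ± 0.14. The actin cross-linker Flnc differed by 3.89 ± 0.11 (other probes as low as 0.32), and the LIM-domain gene Crip1 by 3.80 ± 0.12. Arhgap8, which encodes a GTPase-activating protein, differed by 4.32 ± 0.07. Kctd12b was higher by 3.94 ± 0.06 (another probe 1.19), Armcx2 by 3.00 ± 0.07 and Trim35 by 2.99 ± 0.06 (another probe 0.74). Slc25a17, a peroxisomal carrier, was higher by 3.69 ± 0.06 at its brightest probe but another probe gave -0.91, so its direction depended on the probe.

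Among the genes lower in the rescue line, Phactr1, a regulator of actin and protein phosphatase, had ratios of -0.46 and -0.39 against 3.63, 3.79 and 3.78. Its difference was -4.16 ± 0.07 (17.9-fold), and a second probe gave -3.32. Mmp13, a secreted collagenase, read 0.46 and 0.43 in the rescue line and 4.33, 4.32 and 4.29 in the vector line, a difference of -3.87 ± 0.05. S100a8, a calcium-binding alarmin subunit, stood at -0.33 and -0.80 against 2.59, 2.77 and 2.71. The lines were far apart in S100a8 (-3.26 ± 0.13), whereas S100a9, the other subunit of the same heterodimer, gave -0.01 and was not called.

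Fabp4, a fatty acid carrier, was lower by a difference of -3.90 ± 0.09 (another probe -0.50), and the secreted glycoprotein Olfm1 by -3.60 ± 0.06. The betaine transporter Slc6a12 differed by -2.88 ± 0.08, Ccn3 (a matricellular protein) by -2.58 ± 0.05, and Snhg18, a non-coding RNA, by -2.54 ± 0.05. Gsdme, the gasdermin that forms membrane pores after cleavage by caspase, had ratios of -2.92 and -3.02 against -0.45, -0.46 and -0.47. That difference was -2.51 ± 0.06. The remaining large lower calls were the cadherin Cdh5 (-2.51 ± 0.14, another probe -0.43, not well above background on the wild-type rescue array), the melanosome and lysosome glycoprotein Gpnmb (-2.44 ± 0.07, another probe -0.28), the elastic fibre gene Efemp2 (-2.36 ± 0.06), the inositol synthase Isyna1 (-2.25 ± 0.05) and the scavenger receptor Colec12 (-2.22 ± 0.06, another probe -0.89). Speg, a muscle kinase gene, was lower by a difference of -2.62 ± 0.14 at its brightest probe and by -0.06 at another.

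**Figure D2:**
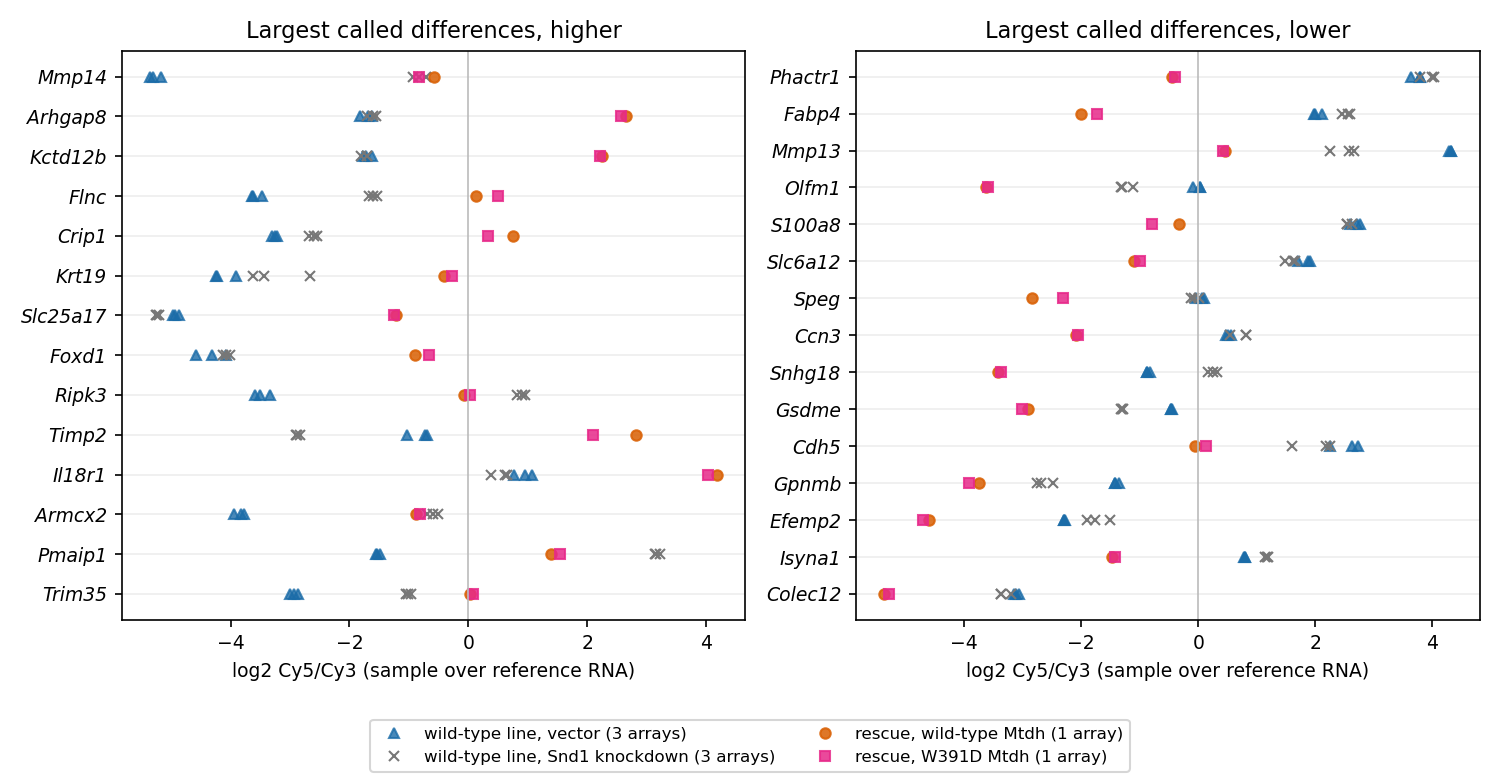
Log2 ratio of Cy5 over Cy3 on each of the 5 arrays of the comparison, with the 3 Snd1 knockdown arrays beside them, for the named genes called highest and lowest in the rescue line. In each gene the rescue and vector arrays occupy separate ranges, which the choice of genes required.

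Matrix proteases and their inhibitors held large differences in both directions. Of 30 measured genes of metalloproteinases, TIMPs and plasminogen activation, 13 were called higher and 5 lower, with 10 higher and 3 lower by at least 2-fold. The median difference was 0.14, beside 0.019 over all features. Counts in this and the following lists stand beside the shares over all features, 23.2% higher and 17.5% lower, and a share near these says nothing about the list. With Cy5 alone, 12.5% of features were called higher and 11.5% lower, and most lists held fewer calls. Counts with Cy5 alone stand beside these lower shares. The higher genes included both sides of the protease balance. Timp1 had ratios of 0.87 and 1.09 against -1.67, -1.59 and -1.72 (2.64 ± 0.08), and Timp3 was higher by 1.24 ± 0.10. Plau, the urokinase plasminogen activator, was higher by 1.60 ± 0.06 (another probe 0.68). The gelatinase Mmp9 was higher by 1.42 ± 0.13 and Mmp11 by 1.57 ± 0.08. The genes lower by at least 2-fold were the stromelysins Mmp3 and Mmp10 and the collagenase Mmp13. Mmp3 read -0.90 and -1.13 against 1.01, 1.17 and 1.07 (-2.09 ± 0.09), and Mmp10 differed by -1.25 ± 0.10. Mmp2 was not called (0.13).

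Collagens and basement membrane genes were called higher in 16 and lower in 7 of 33, with a median of 0.21 that fell to 0.001 when Cy5 was used alone. Without the wild-type rescue array it was 0.054. Col5a2, a fibrillar collagen, was higher by 2.92 ± 0.09, and the basement membrane linker Nid1 by 2.04 ± 0.10. Col5a1, which pairs with Col5a2 in type V collagen, was lower, with a difference of -1.09 ± 0.07 (another probe -0.46). The basement membrane genes Col4a1 (1.06 ± 0.07), Hspg2 (1.12 ± 0.07) and Lama3 (1.06 ± 0.08) were all higher.

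Genes of the epithelial-mesenchymal transition did not move as 1 block. Of 31 measured, 11 were higher and 13 lower, 9 and 8 of them by at least 2-fold, and the median was -0.03, with a sign that changed between processing settings. The N-cadherin gene Cdh2 had ratios of 0.58 and 0.25 against -2.32, -2.46 and -2.46 (2.82 ± 0.10), and the factor Prrx1 was higher by 2.94 ± 0.08 (another probe 1.89). In the other direction, the intermediate filament gene Vim read -4.86 and -4.63 against -3.64, -3.53 and -3.62 (-1.15 ± 0.08). S100a4, a calcium-binding protein gene of motile cells, read -3.84 and -4.05 against -2.12, -1.90 and -1.82. The matrix gene Sparc was lower (-1.80 ± 0.07). The transcription factors Twist1 (-0.82 ± 0.06), Twist2 (-1.31 ± 0.06), Zeb2 (-0.87 ± 0.05) and Snai2 (-1.09 ± 0.14) were all lower, while Snai1 was not called (-0.06).

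Epithelial markers were examined for the labelled cell type. All 43 epithelial junction genes on the array were well above background on all 5 arrays. So were 22 of 23 leukocyte, 16 of 18 fibroblast, 10 of 13 endothelial and 10 of 12 adipocyte genes. Detection therefore did not separate cell types. The mean log2 ratio of the junction genes was 2.17 to 2.21 on the rescue arrays and 1.83 to 1.89 on the vector arrays. In the test, 21 of the 43 were higher and 4 lower, with a median of 0.30. When arrays were scaled to the same spread, however, the median of this list was -0.046, so its direction depended on the scaling. The tight junction gene Cldn4 read 3.86 and 3.89 against 2.52, 2.62 and 2.33 (1.38 ± 0.09). Smaller higher calls were those of the E-cadherin gene Cdh1 (0.71 ± 0.10), Epcam (0.69 ± 0.07), Ocln (0.80 ± 0.08) and the scaffold Tjp1 (0.79 ± 0.06, another probe 0.17).

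Luminal mammary genes were called higher in 12 and lower in 3 of 29. Prom1, a surface protein of luminal cells, stood at 2.94 and 2.92 against 0.25, 0.63 and 0.37 (2.51 ± 0.11, another probe 1.30), and was not well above background on the second vector array. Tbx3, a mammary patterning factor, was higher by 1.93 ± 0.09 and the oestrogen receptor gene Esr1 by 0.95 ± 0.07. The alveolar regulator Elf5 was lower, at 1.53 and 1.27 against 2.31, 2.70 and 2.66 (-1.16 ± 0.13), and so was Aldh1a3 (-1.58 ± 0.20). The progesterone receptor gene Pgr was on no array above background, and Krt8 (0.08) and Krt18 (-0.05) were not called. Basal genes were split, with 10 higher and 7 lower of 26. The Notch ligand gene Jag2 (1.89 ± 0.16) and Egfr (1.79 ± 0.06, another probe 0.72) were higher, and Id4 (-0.997 ± 0.082) and the kinase Mylk (-1.96 ± 0.10, another probe -0.02) lower. Krt14 was higher by 0.59 ± 0.08 and Krt5 was not called (-0.05).

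Milk and secretory genes were mostly lower where they were called, in 9 of 22 against 1 higher (Wfdc2, 0.48). Csn3 (kappa-casein) had ratios of 1.99, 2.50 and 2.40 in the vector line and was not well above background on either rescue array. It was at least 4.47-fold lower in the rescue line, the smaller of the fold of the log ratios and the fold in Cy5 against the lowest signal that counted as well above background. Bounds below were set in the same way. In bulk RNA, fewer cells of a type and less RNA per cell cannot be told apart, here and for the other lineage genes. The other caseins on the list, Csn2 (0.11), Csn1s1 (-0.10) and Csn1s2a (-0.10), were not called.

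Markers of cell types that a tumour culture could also hold were examined in the same way. The mean ratio of the 16 fibroblast genes tested was -3.05 to -3.04 on the rescue arrays and -2.99 to -2.92 on the vector arrays. Of these genes 2 were higher and 5 lower. The fibroblast and matrix gene Fbln2 was higher by 2.33 ± 0.07, whereas the matricellular gene Postn (-1.04 ± 0.06), the collagen cross-linker Loxl1 (-1.04 ± 0.10) and Dcn (-0.64 ± 0.07) were lower. Dcn turned to 0.14 when arrays were scaled to equal spread. Leukocyte genes had a mean of -1.14 to -1.13 against -1.21 to -1.14, with 5 of 23 higher and 1 lower (S100a8), and the pan-leukocyte gene Ptprc (0.18) was not called. The 11 endothelial genes tested had a mean of -0.288 to -0.241 against -0.100 to -0.0758. Of the 13 on the array, Tek was above background on no array. Among the 11, 2 were higher and 3 lower, with a median of 0.11 that was -0.016 with the software's log ratio. Egfl7 was higher by 0.93 ± 0.08. Kdr, a VEGF receptor, was lower (-0.78 ± 0.07) with Cdh5, while Pecam1 (0.14) was not called. Adipocyte genes lay at -0.615 to -0.534 against -0.307 to -0.194, with 1 of 12 higher (Lpl, 0.68 ± 0.07), 3 lower, among them Fabp4, and a median of -0.04. Adipoq (0.01) was not called. Their part in the other differences was not tested.

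**Figure D3:**
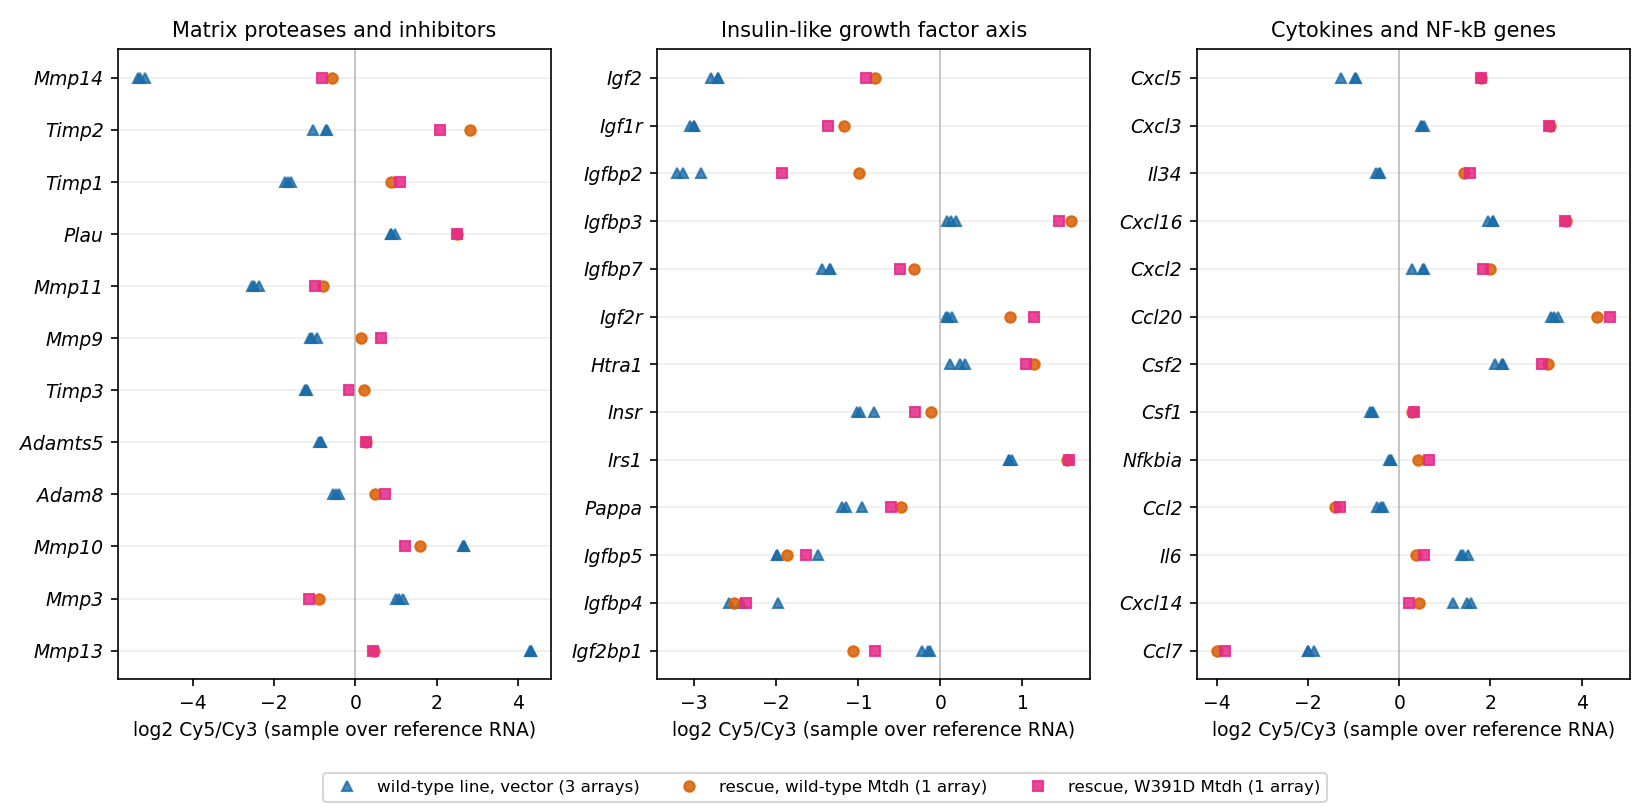
Log2 ratio of Cy5 over Cy3 (horizontal axis) on each vector array (triangles), the wild-type rescue array (circles) and the W391D rescue array (squares), for selected matrix protease genes, genes of the insulin-like growth factor axis and cytokine or NF-kB genes. Igfbp4 and Igfbp5, which were not called, are the genes shown in which the lines overlap, and Mmp3, Mmp10, Mmp13, Igf2bp1, Ccl2, Ccl7, Il6 and Cxcl14 have the rescue arrays on the lower side.

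Among signalling lists, the insulin-like growth factor axis had a median of 0.63, beside 0.019 over all features. Of its 18 measured genes, 12 were higher and 1 lower. The median was 0.37 with the mean over a gene's probes and 0.77 with the software's log ratio. With Cy5 alone 9 were higher and 1 lower, beside 12.5% and 11.5% over all features. The ligand gene Igf2 had ratios of -0.80 and -0.91 against -2.71, -2.80 and -2.72 (1.89 ± 0.06). Its receptor Igf1r read -1.18 and -1.37 against -3.05, -3.005 and -3.01 (1.75 ± 0.07, another probe 0.57). The insulin receptor gene Insr (0.72 ± 0.09) and the docking protein gene Irs1 (0.70 ± 0.05) were also higher, although a second Irs1 probe gave 0.002. The binding proteins divided into those called higher, Igfbp2 (1.63 ± 0.24), Igfbp3 (1.38 ± 0.07) and Igfbp7 (0.97 ± 0.07), and those not called, Igfbp4 (-0.12) and Igfbp5 (0.08). The decoy receptor gene Igf2r was higher by 0.90 ± 0.09. The RNA-binding protein gene Igf2bp1 was the lower member (-0.77 ± 0.09), and Igf1 was not called (0.09).

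NF-kB targets, cytokines and chemokines were called higher in 23 and lower in 9 of 40, with a median of 0.29. Neutrophil chemokines were among the largest. Cxcl5 had ratios of 1.80 and 1.79 against -0.96, -1.27 and -0.94 (2.85 ± 0.10), and Cxcl3 stood at 3.30 and 3.28 against 0.51, 0.55 and 0.47 (2.78 ± 0.05). Cxcl2 was higher by 1.46 ± 0.09, Cxcl16 by 1.63 ± 0.06 and the macrophage cytokine Il34 by 1.94 ± 0.06. The colony-stimulating factor genes Csf1 (0.92 ± 0.05), Csf2 (0.99 ± 0.07) and Csf3 (0.51 ± 0.10) were higher. The feedback inhibitor genes Nfkbia (0.73 ± 0.08), Nfkbie (0.76 ± 0.06) and Nfkbiz (0.71 ± 0.07) were higher too, as was Rela by 0.25. In contrast, the monocyte chemokine Ccl7 read -4.01 and -3.83 against -1.88, -2.003 and -2.001 (-1.96 ± 0.07). Its relative Ccl2 was lower (-0.94 ± 0.06), and so was Il6, at 0.37 and 0.55 against 1.51, 1.36 and 1.39 (-0.96 ± 0.08). Tnf (0.07) and Ptgs2 (-0.09) were not called.

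YAP targets and matricellular genes were called higher in 12 and lower in 4 of 20, with a median of 0.32. The YAP target Ankrd1 had ratios of 0.90 and 1.03 against -1.31, -1.54 and -1.52 (2.42 ± 0.08). Tenascin-C, Tnc, was higher by 1.86 ± 0.09, Tead1, a DNA-binding partner of YAP, by 1.55 ± 0.06 (another probe 0.12), and Lats2, a kinase that restrains YAP, by 1.01 ± 0.06. The targets Ccn1 (0.60 ± 0.09) and Ccn2 (0.21) were higher, and Yap1 was not called (0.06). The 4 lower members, Ccn3, Sparc, Postn and Spp1, encode secreted matricellular proteins.

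The type I interferon list leaned lower, but with 1 array. Of 46 genes, 12 were higher and 19 lower, and the median was -0.18. With Cy5 alone 5 were higher and 10 lower. The median was 0.005 for the wild-type rescue array and -0.25 for the W391D array against the same vector arrays. Without the W391D array the list thus had no negative median. Irf7, a regulator that amplifies interferon genes, had ratios of 1.24 and 1.00 against 2.32, 2.62 and 2.38 (-1.32 ± 0.11). Ifi27l2a was lower (-1.47 ± 0.17). Irf1, a factor with targets in interferon and NF-kB responses, was higher, at 1.59 and 1.47 against 0.19, 0.35 and 0.19 (1.29 ± 0.07, another probe 0.44). The GTPase gene Ifi47 was higher by 1.44 ± 0.11.

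Receptor and morphogen lists had medians nearer 0 than the insulin-like growth factor axis. Of 29 growth factor receptors and EGF-family ligands, 11 were higher and 7 lower. The ephrin receptor Epha4 had ratios of 1.64 and 1.59 against -0.66, -0.91 and -0.56 (2.33 ± 0.10, another probe 0.31), and Met, the receptor of hepatocyte growth factor, was higher by 0.79 ± 0.07. Erbb2 was higher by 0.72 ± 0.06 at its brightest probe and gave -0.04 at another. Notch receptors and ligands were among the higher genes, with Notch1 at 0.99 and 0.91 against -0.02, -0.04 and -0.03 (0.98 ± 0.05) and Jag1 by 0.67 ± 0.07. The Notch target Hes1 was lower (-0.56 ± 0.06). In all, 8 of 23 Notch genes were higher and 5 lower.

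Wnt pathway genes were higher in 16 and lower in 6 of 41. Tcf7l1, a DNA-binding factor of the pathway, was higher by 1.38 ± 0.07 (another probe 0.86) and the ligand Wnt4 by 1.09 ± 0.09. Rnf43, which removes Wnt receptors from the surface, read -0.64 and -0.91 against 0.54, 0.54 and 0.55 (-1.32 ± 0.08). TGF-beta, BMP and ID genes were higher in 17 and lower in 9 of 35. The receptor Tgfbr2 was higher by 1.03 ± 0.07 and the ligand Bmp4 by 1.02 ± 0.07, while Tgfbr1 (-0.50 ± 0.06), the ligand Tgfb3 (-0.75 ± 0.06) and the target Id2 (-0.90 ± 0.13) were lower. Among 15 SOX factors 2 were higher and 4 lower. Sox10 read -0.25 and -0.13 against 1.25, 1.21 and 1.27 (-1.43 ± 0.06), and Sox9 was higher by 0.84 ± 0.06 at its brightest probe but gave -0.22 at another.

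Of 31 Hox genes, 9 were called higher, 5 of them by at least 2-fold, and none lower, beside 23.2% and 17.5% over all features. No Hox gene belongs to the brightest of 5 equal groups of features. In that group 32.6% of features were called lower, against 4.86% in the dimmest. Over the alternative settings, 8 to 14 were higher and 0 to 1 lower. All 9 lie in the Hoxa and Hoxb clusters. Hoxb6 stood at 0.04 and 0.13 against -1.68, -1.76 and -1.64 (1.77 ± 0.06). Hoxa7 (1.45 ± 0.10), Hoxb4 (1.33 ± 0.10), Hoxb7 (1.29 ± 0.10) and Hoxa5 (0.78 ± 0.06) were also higher. The other 22 Hox genes were not called, and the median of the list was 0.11. On the Snd1 knockdown arrays Hoxa7 lay at 0.72 to 0.97 and Hoxb7 at 1.18 to 1.30, above both lines.

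Genes of the response to camptothecin gave smaller lists with mixed directions. Of 36 p53 targets, 15 were higher and 7 lower, with a median of 0.10. With Cy5 alone 5 were higher and 6 lower, beside 12.5% and 11.5% over all features. The median was 0.056 without the wild-type rescue array and 0.19 without the first vector array. Pmaip1 was the only member called at 2-fold or more. Bax, an effector of mitochondrial death, had ratios of -0.09 and -0.09 against 0.91, 0.88 and 0.84 (-0.97 ± 0.05). Gadd45a was lower too (-0.72 ± 0.05), and the cell cycle inhibitor gene Cdkn1a was not called (-0.11). So the largest higher and the largest lower p53 target were both genes of the mitochondrial death pathway. Anti-apoptotic genes were higher in 8 (4 with Cy5 alone) and lower in 2 of 12, none by 2-fold. Cflar, an inhibitor of caspase-8 activation, was higher by 0.72 ± 0.06 (other probes as low as 0.15), Birc3 by 0.68 ± 0.07, Bcl2 by 0.33 ± 0.06 and Mcl1 by 0.29 ± 0.06, while Bag1 was lower (-0.58 ± 0.05) and Bcl2l1 was not called (-0.03).

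In the ATR-CHK1 and homologous recombination list, 21 of 46 genes were higher and 9 lower. With Cy5 alone 8 were higher and 9 lower, beside 12.5% and 11.5% over all features. Without the wild-type rescue array the median of 0.09 was 0.15. Brca2, which acts in homologous recombination, stood at 0.94 and 1.01 against -0.82, -0.89 and -0.82 (1.82 ± 0.06, another probe 0.75). Brca1 was higher by 0.87 ± 0.05 (another probe 0.21), the kinase gene Atr by 0.69 ± 0.05 (another probe 0.08) and Chek1 by 0.21. Top1, which encodes the target of the drug, was higher by 0.31, and Tdp1, the phosphodiesterase that removes trapped topoisomerase I, was not called (-0.09). Top2a, the topoisomerase of dividing cells, was higher, at 1.06 and 1.08 against -0.12, -0.12 and -0.20 (1.22 ± 0.05). Abcg2, an efflux pump for camptothecins, was not called (0.11).

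Cell cycle lists had medians near 0. Of 39 genes of G2/M and mitosis, 12 were higher and 9 lower. Of 42 genes of DNA replication and G1/S, 10 were higher and 9 lower. The shares over all features were 23.2% higher and 17.5% lower. Most genes of the 2 lists, 32 and 30, belong to the brightest of 5 equal groups of features. In that group 30.9% were called higher and 32.6% lower. With Cy5 alone 4 genes were higher in each of these lists. The proliferation marker gene Mki67 had ratios of -0.78 and -0.65 against -1.72, -1.81 and -1.71 (1.03 ± 0.06), and Uhrf1, a partner of DNA methylation at replication, was higher by 1.45 ± 0.06. Cyclin B1, Ccnb1, was lower (-0.26), and so was the sliding clamp gene Pcna (-0.31). The small heat shock gene Hspb8 was higher by 2.24 ± 0.08 and Hspb1, at 2.39 and 2.56 against 0.28, 0.25 and 0.29, by 2.20 ± 0.06. The heat shock list as a whole had 6 higher and 8 lower of 21.

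Other stress lists held calls in both directions. In the unfolded protein and integrated stress response, 16 of 34 genes were higher and 9 lower. With Cy5 alone 5 were higher and 6 lower, beside 12.5% and 11.5% over all features. Chaperones of the endoplasmic reticulum were among the higher genes, with Pdia4 at -0.38 and -0.40 against -1.13, -1.16 and -1.11 (0.74 ± 0.05), Hsp90b1 by 0.72 ± 0.08 and Hspa5 by 0.41. Among the lower genes were some downstream of eIF2-alpha phosphorylation, namely Atf4 (-0.34), Ddit3 (-0.45), Ppp1r15a (-0.70 ± 0.11) and Trib3, at -1.30 and -1.34 against -0.30, -0.12 and -0.25. Of 25 NRF2 targets, 9 were higher and 10 lower. The quinone reductase Nqo1 was higher by 0.96 ± 0.07, and the glutathione synthesis subunit Gclm (-0.62 ± 0.07), Srxn1 (-0.67 ± 0.08) and Hmox1 (-0.42) were lower. Drug efflux pumps were also split, with Abcc4 higher by 1.07 ± 0.06 (another probe 0.39) and Abcb1a, a P-glycoprotein gene, at 0.86 and 0.67 against 1.29, 1.58 and 1.39 (-0.66 ± 0.10).

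Metabolic lists moved in both directions. Of 36 genes of glycolysis and the hypoxia response, 13 were higher and 16 lower. Egln3, an oxygen-sensing prolyl hydroxylase, read -4.75 and -4.48 against -2.63, -2.56 and -2.61 (-2.02 ± 0.08), and the glycolytic enzyme Eno1 was lower (-1.27 ± 0.06). Pfkfb3, which makes an activator of glycolysis, was higher by 1.29 ± 0.05 (another probe 0.12). Among 25 cholesterol synthesis genes 7 were higher and 9 lower. Among 30 genes of fatty acid synthesis, uptake and storage 13 were higher and 10 lower. Fasn, the fatty acid synthase, was higher by 0.92 ± 0.06 (another probe 0.44), and Thrsp, a regulator of lipogenesis, was lower, at 0.53 and 0.31 against 1.95, 2.29 and 2.30. Hexa, a lysosomal hexosaminidase, was higher by 2.47 ± 0.08, in a lysosomal list with 11 of 41 higher and 15 lower. The lysosomal galactosidase Gla was lower (-1.12 ± 0.06).

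Surface markers used for tumour-initiating cells were higher in 8 and lower in 1 of 19. Beside Prom1, Cd44 stood at 1.60 and 1.61 against 0.30, 0.51 and 0.43 (1.20 ± 0.07, another probe 0.16), and the integrin Itgb1 was higher by 1.23 ± 0.05 (another probe 0.53). The integrin Itgb3 was the lower member, at -1.41 and -1.31 against 0.37, 0.56 and 0.45. Of 21 genes of the RNA silencing machinery, in which Mtdh and Snd1 are counted, 10 were higher and 3 lower. The nuclease Dicer1 was higher by 0.57 ± 0.12 and the Argonaute Ago2 by 0.49. Imprinted genes were higher in 5 and lower in 9 of 23. Mest, a paternally expressed gene, stood at 1.05 and 1.07 against -0.48, -0.53 and -0.50, and Impact at -2.09 and -1.98 against 0.04, -0.04 and -0.02.

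Lists of abundant housekeeping genes held more lower than higher calls, mostly by small steps. Proteasome subunits were lower in 18 and higher in 5 of 31 (median -0.25), respiratory chain subunits lower in 28 and higher in 2 of 48 (median -0.19), and cytosolic ribosomal proteins lower in 21 and higher in 2 of 52 (median -0.17). Nearly all of these genes, 30, 46 and 52, belong to the brightest of 5 equal groups of features, in which 32.6% were called lower, 30.9% higher and the median was -0.02. With Cy5 alone the medians were -0.20, -0.08 and -0.01. In that setting 10, 8 and 5 genes were lower, beside 11.5% of all features. The 5 of 52 ribosomal proteins were thus no larger a share. Psma3 read 0.06 and 0.08 against 0.79, 0.76 and 0.79 (-0.71 ± 0.05), Sdhb of complex II differed by -0.62 ± 0.06 and Rpl4 by -0.83 ± 0.07. Among the proteasome genes called higher, Psmd3 (1.34 ± 0.05) and Psmd12 (0.95 ± 0.06) stood far from the rest, and both lie on chromosome 11.

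**Figure D4:**
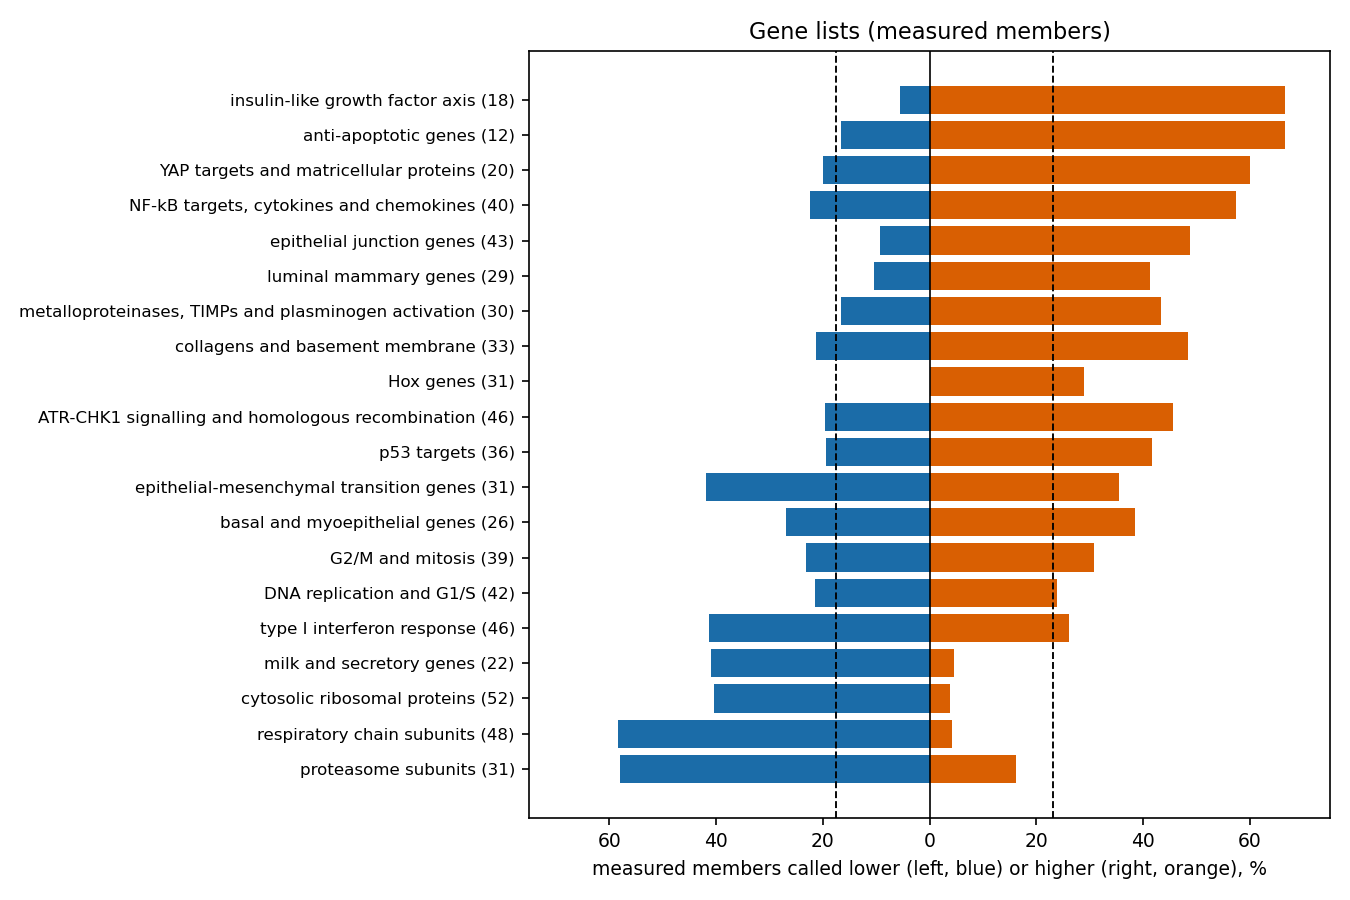
Share of measured members called higher (right, orange) and lower (left, blue) in the rescue line for 20 gene lists, in percent, with the number of measured members in parentheses and the shares over all features (23.2% higher, 17.5% lower) as dashed lines. The insulin-like growth factor axis has 12 of 18 members higher, and respiratory chain subunits have 28 of 48 lower.

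A few genes were detected in 1 line only. On both rescue arrays but on no vector array 35 genes were well above background. Heph, a copper-dependent iron oxidase, read 1.33 and 0.96 on the rescue arrays and was at least 2.59-fold higher. Bounds for the others among the 8 brightest were lower, for example at least 1.67-fold for Ereg, a ligand of the EGF receptor, at least 1.79-fold for the sperm flagellum gene Spef2 and at least 1.68-fold for the radial spoke gene Rsph1. In the other direction 39 genes were well above background on all vector arrays and on no rescue array. These genes were taken by detection in the line where they are high, so a count of calls among them is not given. Beside Csn3, the protease inhibitor gene Serpina3n was at least 2.36-fold lower in the rescue line, the cytochrome Cyp1a1 at least 2.83-fold, the cadherin Cdh17 at least 2.22-fold, the Wnt antagonist Dkk2 at least 1.77-fold and Sox7 at least 1.81-fold.

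When named genes were set in genome order and divided into 440 runs of 40 genes (fewer at chromosome ends), a few stretches had medians far from those of the other runs. Run medians had a 10th percentile of -0.069 and a 90th of 0.094. At or above 0.2 were 11 runs, 5 on chromosome 11, 4 on chromosome 5 and 2 on chromosome 8, and 1 run was at or below -0.2. The 4 on chromosome 5 were its last 4 runs. Over these 147 genes, from Ap4m1 to Rfc3, the median was 0.42, with 92 genes higher (62.6%) and 4 lower. Of the 920 genes before them on chromosome 5, 246 were higher (26.7%) and 214 lower, with a median of 0.006. The median of the stretch was 0.40 on the wild-type rescue array and 0.43 on the W391D array, and Snd1 knockdown arrays, measured against the same vector arrays, had a median of 0.03 there.

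Genes of that stretch included several described above or known in tumour cells. Brca2 and Hsph1 (1.12 ± 0.06) belong to it. The GTPase gene Rac1, a driver of cell migration, had ratios of 1.35 and 1.26 against -0.48, -0.42 and -0.39 (1.73 ± 0.06). Trrap, a scaffold of histone acetyltransferases, stood at -0.29 and -0.11 against -1.89, -2.02 and -2.02 (1.78 ± 0.08). The actin bundler Fscn1 was higher by 1.52 ± 0.05, the amino acid transporter gene Slc7a1 by 1.57 ± 0.07 and the mismatch repair gene Pms2 by 1.27 ± 0.05. In all of these the rescue arrays lay above every vector array, but the genes were picked with their values seen. The lines did not overlap at 61.1% of all features. The 4 genes lower were Rpl21 (-0.67 ± 0.07), Taf6 (-0.45), Lamtor4 (-0.38) and Gpc2 (-0.22).

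On chromosome 11 the highest run reached from Tex2 to Cog1, with a median of 0.42 and 26 of 40 genes higher. A few runs further, the 40 genes from Mif4gd to St6galnac2 had the lowest median of all runs, -0.38, with 25 lower and 2 higher, and the knockdown arrays minus the same vector arrays gave -0.30 there. By whole chromosome, 35.4% of genes on chromosome 8, 33% on chromosome 11 and 31.7% on chromosome 5 were higher. On chromosome 16, 34.4% were lower. Of all 17689 named genes tested, 4266 were higher and 3684 lower. DNA copy number was not measured, and its part in these differences was not tested.

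**Figure D5:**
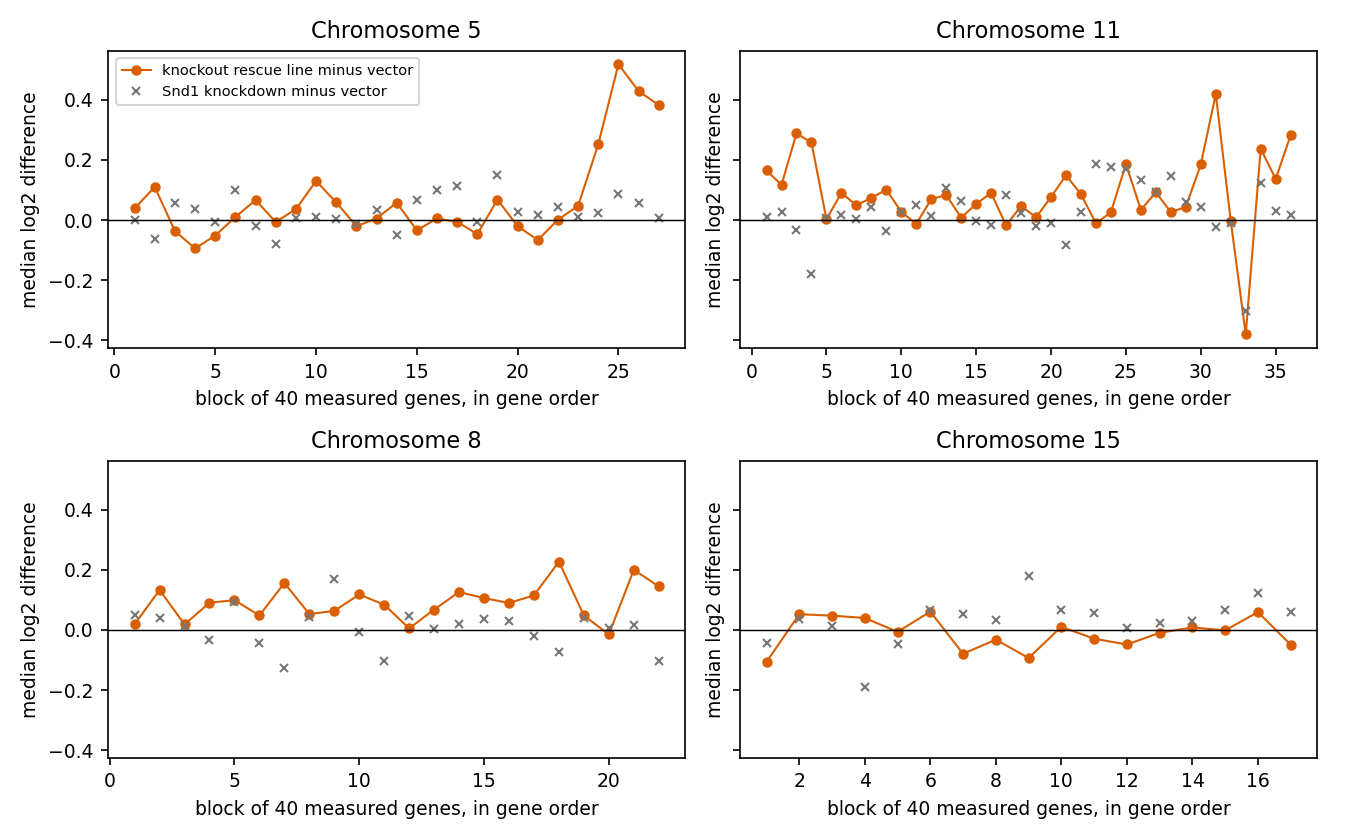
Median log2 difference from the vector arrays in consecutive runs of 40 named genes along chromosomes 5, 8, 11 and 15, for the rescue line (circles joined by a line) and the Snd1 knockdown (crosses), both against the same vector arrays. The last 4 runs of chromosome 5 and 5 runs of chromosome 11 lie above 0.2 in the rescue line, and 1 run of chromosome 11 lies at -0.38.

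Around Mtdh on chromosome 15, of 25 protein-coding genes on each side 47 were measured, with 16 higher, 12 lower and a median of 0.12. Over all features 23.2% were higher and 17.5% lower, with a median of 0.019. The next genes were split. Tspyl5 stood at 0.79 and 0.68 against -0.10, -0.12 and -0.05 (0.82 ± 0.06), while Laptm4b, a lysosomal membrane protein gene, read -0.32 and -0.25 against 0.22, 0.14 and 0.12 (-0.44 ± 0.06). The largest differences in the window were those of Ywhaz, a 14-3-3 adaptor gene (2.38 ± 0.09), and Pop1, a subunit of RNase P (-1.49 ± 0.10). In each of these 4 genes the lines did not overlap, as at 61.1% of all features.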

How the data were processed

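Spot intensities are the median Cy5, Cy3 and local background signals deposited by the authors, extracted with Agilent Feature Extraction 11.0.1.1 per the file headers (9.5.3.1 per the submitters' processing notes). That software's deposited log10 ratios, background-subtracted and dye-normalized per the file headers, and the authors' deposited log2 value table were used in alternatives. Here the signals were background-corrected (normexp, offset 50) and loess-normalized within each array in limma 3.58.1 (R 4.3.3). Control and outlier spots were left out. Of 41174 probes, 27668 were named through RefSeq accessions. GRCm38.p6 gave names and gene order alone, since the headers name an older build (mm9), so no coordinates are printed. The brightest probe stood for a gene. Another probe's value is given where it differs in sign or by over 1.5 times, for genes that the naming rule below took by rank, Mtdh and Snd1. For other genes, such as members added to describe a list or genes named from chromosome runs, the lack of such a value does not mean that probes agree.

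Features whose Cy5 signal was flagged well above background on 2 or more of the 5 arrays were tested with lmFit and eBayes and called at an adjusted p (Benjamini-Hochberg) under 0.05. Errors are standard errors of the difference. Nothing says that arrays of a line came from separate cultures, so p-values measure the spread between these samples, which may be technical. Of the 2 rescue arrays, 1 held the mutant Mtdh, so their spread includes that difference. The number of arrays limits the precision.

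The comparison and the 49 gene lists were chosen with earlier results of these data known, so the lists were given no test of their own. Genes were named by a rule: Mtdh and Snd1; the 15 highest and 15 lowest calls without overlap, leaving out clone names; from each list, at most the 4 calls of smallest p; the 8 brightest genes detected in 1 line; and members needed to describe a list. Some genes that the rule took are not reported here. The runs of genes along chromosomes and the genes named from them were added after the values had been seen.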

Additional observations from a re-analysis of the deposited data

How the results depend on the processing

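Counts of calls changed by more than 1.5 times in 3 settings. With Cy5 alone, 3363 features were higher and 3105 lower. At an adjusted p under 0.01, 4402 were higher and 3141 lower. With a test against a 2-fold difference, 208 were higher and 93 lower. The other settings gave 4836 to 6541 higher and 4364 to 5163 lower, and leaving out each array in turn gave 4751 to 6544 and 3485 to 4842. With 1 rescue array left out, the lone array of that line is assumed to vary like the others. Of the calls, 57.0% were higher, against 49.0% with the software's log ratio, 48.9% with the value table, 50.1% with median centring and 69.1% with the 2-fold test. With Cy5 alone 46.0% of the calls were kept and 37 reversed. Signs turned with Cy5 alone for Ndufs8 (0.093), Lipe (0.56), Emcn (0.22), Cpq (-0.12), Rpl30 (0.14), Cox6c (0.020) and Actb (-0.082), with scaling to equal spread for Dcn (0.14), and with the mean over a gene's probes for Atf6 (-0.17) and Sdc2 (-0.073). The median around Mtdh was 0.060 with median centring and 0.049 to 0.158 with arrays left out. The median of the last runs of chromosome 5, whose alternatives were chosen after seeing the data, was 0.36 with scaling to equal spread. The causes were not tested. No paired analysis was possible because the rescue arrays carry no replicate numbers shared with the vector arrays. The slide as a random block was not fitted over the 5 arrays. Fitted over all 8 arrays, with a correlation of 0.31, it gave 6079 higher and 4602 lower.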

Other observations

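A list of motile cilia genes, which build the beating axoneme, was drawn up after several of them had been seen among the genes detected in the rescue line alone, so it has no test and its count is a description. Of 126 listed genes 100 were measured, 40 of which were called higher and 3 lower, 3 of them higher by at least 2-fold, beside 23.2% higher and 17.5% lower over all features. Of the 100, 8 were well above background in the rescue line alone and could enter only through it, and 7 of these are among the 40, so the count supports nothing. The median difference over the same 100 genes was 0.13 (0.16 on the wild-type rescue array and 0.12 on the W391D array), beside 0.019 over all features. It carries the same selection as the count and supports nothing either. Wdr78, an axonemal dynein component gene, was higher by 1.36, the dynein assembly factor gene Dnaaf5 by 1.05 and Dnali1 by 0.93. Dnaaf5 lies in the stretch at the end of chromosome 5. The genes called lower were Cfap43 (-0.55), Iqcd (-0.33) and Mdh1b (-0.30).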
